A study of Homo sapiens with 6 samples.

Results

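The genes described are 10 parts of the switch by which cyclic AMP and protein kinase A (PKA) change transcription: the CREB factors CREB1, CREM and ATF1, the histone acetyltransferase coactivators CREBBP and EP300, the CREB-regulated coactivators CRTC2 and CRTC3, and the salt-inducible kinases SIK1, SIK2 and SIK3. They were found by gene symbol, 10 of the 30960 genes in the deposited expression table. RNA was measured in HEK293, a line grown from human embryonic kidney, harvested 48 h after transfection with Lipofectamine of a plasmid at 158 ng per square centimetre. In the PKI group the plasmid coded for a fusion of GFP with PKI1-24, and in the inPKI group for a fusion of GFP with inPKI1-24, which the labels call the control. Both groups thus carry a GFP fusion and the same transfection, each has 3 libraries (A, B and C), and the share of cells that took up plasmid is not given in the sources used here. PKI proteins bind the catalytic subunit of PKA and block it.

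When cyclic AMP rises, PKA phosphorylates CREB proteins bound to cyclic AMP response elements in DNA, and the phosphorylated factor recruits the paralogous acetyltransferases CBP (gene CREBBP) and p300 (EP300). A second arm runs through the CRTC coactivators, which SIKs phosphorylate and so keep bound to 14-3-3 proteins in the cytoplasm; PKA phosphorylates the SIKs and thereby frees the CRTCs to enter the nucleus. The switch also feeds back on itself, since SIK1 and an internal promoter of CREM, which drives the repressor ICER, are known CREB targets. HEK293 cells were made with adenovirus DNA, and the adenoviral E1A protein is known to bind CBP and p300. Except for the feedback on SIK1 and CREM, which acts on transcription, this control acts largely on proteins, and the data here are levels of RNA.

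The promoter windows of these targets are shown because the comparison with PKI bears on genes that PKA can switch on through such elements. Each window runs from 250 bases before to 50 bases after an annotated start, is taken from RefSeq on GRCh38.p14 and reads 5′ to 3′ on the gene's strand. Capitals mark the full element TGACGTCA or its core TGACG, sought on both strands (CGTCA is the core read from the other strand), and the full element contains a core on each strand.
SIK1, chr21:43427082-43427381, minus strand: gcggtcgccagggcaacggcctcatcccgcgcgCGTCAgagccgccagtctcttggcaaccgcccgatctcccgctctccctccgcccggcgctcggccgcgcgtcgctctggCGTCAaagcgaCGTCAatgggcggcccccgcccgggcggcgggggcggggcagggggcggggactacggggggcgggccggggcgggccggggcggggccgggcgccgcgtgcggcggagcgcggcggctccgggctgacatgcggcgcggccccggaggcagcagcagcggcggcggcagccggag
CREM, internal start, chr10:35195652-35195951, plus strand: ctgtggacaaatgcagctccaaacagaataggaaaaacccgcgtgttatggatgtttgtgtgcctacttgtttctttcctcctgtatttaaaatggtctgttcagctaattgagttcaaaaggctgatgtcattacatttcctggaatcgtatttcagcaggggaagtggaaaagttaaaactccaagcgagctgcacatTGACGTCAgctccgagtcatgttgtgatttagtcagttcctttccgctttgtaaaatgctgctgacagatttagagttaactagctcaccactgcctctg
The SIK1 window holds 3 cores and no full one. The full element of CREM lies 50 bases upstream of the internal start, and it also falls in the window of 1 neighbouring start among the 7 CREM starts listed. Of all 35116 windows of this length 1.85% hold the full element, 24.6% hold at least 1 core and 1.40% hold 3 or more. Of the 10 genes, 9 have windows in the table, 18 in all, and 8 of the 18 windows hold at least 1 core. These belong to CREM, CREBBP, CRTC3, SIK1, SIK2 and SIK3. A match is a description of the letters and shows neither binding nor use in these cells.

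On the annotation (GENCODE 29, GRCh38) CREB1 lies at chr2:207529737-207603431, CREM at chr10:35126791-35212958 and ATF1 at chr12:50763710-50821122. CREBBP lies at chr16:3725054-3880726 and EP300 at chr22:41091786-41180079. CRTC2 lies at chr1:153947669-153958625, CRTC3 at chr15:90529925-90645345, SIK1 at chr21:43414483-43427189, SIK2 at chr11:111602391-111730853 and SIK3 at chr11:116843402-117098437. All are protein-coding genes, matched by gene identifier. The submitters' processing notes give hg19 as the build, and the positions printed come from the annotation and not from their files. The deposited identifiers were matched to GRCh38 genes, among them a SIK1 copy described below, and the build of the alignment was not settled.

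Reads on the genes listed came to 17244715 to 23589438 per PKI library and 18707086 to 21387137 per inPKI library, recovered from the deposited CPM (reads scaled to library size). The columns summed to 754299 to 785007 CPM, so these reads may not be the full depth. PKIA, the gene of the PKI alpha protein, separated the libraries by their labels, at 43.9 ± 1.96 CPM in PKI and 9.68 ± 1.46 CPM in inPKI (SD, n = 3 each); reads of a plasmid and of the cells' own gene cannot be told apart in it. The neurofilament genes NEFL and NEFM, which this line is known to express, measured 55.6 to 69.2 and 118 to 136 CPM over the 6 libraries. Of genes that mark other cells, CD3E, DCN and SERPINA1 were at 0 in all 6 libraries, while COL1A1 reached 20.3 CPM and KRT5 26.5 CPM. Of the keratinocyte list 3 of 5 genes reached 1 CPM in 3 libraries, and the list summed to 26.0 to 30.5 CPM in PKI and 28.8 to 53.4 CPM in inPKI; of the list for the line itself 6 of 7 did, with sums of 196 to 226 CPM in PKI and 226 to 231 CPM in inPKI. The fibroblast list (2 of 6) and the leukocyte list (1 of 6) summed to 19.4 to 22.7 and 2.23 to 2.55 CPM in PKI. In inPKI they summed to 18.9 to 21.0 and 1.68 to 2.54 CPM. The sums of each of these lists overlapped between the groups. For the line itself the overlap was narrow, with 225.86 CPM in the highest PKI library and 225.81 CPM in the lowest inPKI library. The part of any differences in these sums in the results was not tested. Separate cultures are not stated for the replicates, and every p-value therefore reflects the spread of these 6 libraries alone, which could be technical.

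The comparison of PKI with inPKI libraries asked whether RNA of these genes differs when PKI is present. None of the 10 passed an adjusted p of 0.05 (limma on log2(CPM + 1), Benjamini-Hochberg over all 14275 genes tested, of which 0.126% passed), and edgeR also called 0 of the 10, beside 0.0771% of all genes tested. DESeq2 called 0 of the 8 genes to which it gave an adjusted p, beside 2.73% of the 7909 genes with one, and gave none to CREM and SIK1. All 10 passed the filter on low values, set at 1 CPM or more in 3 or more libraries. Unadjusted, 2 of the 10 were below 0.05 in limma, CREBBP and EP300, both higher in PKI, against 13.7% of all genes tested in either direction (7.53% higher, 6.16% lower). On the scale of log2(CPM + 1) the largest difference was that of EP300, a log2 change of 0.19, whereas in the edgeR and DESeq2 fits it was that of SIK1, at 0.22 in both, beside 0.20 for EP300. In bulk RNA a change in the number of expressing cells and a change of RNA per cell cannot be told apart, and cells with and without plasmid were measured together. For the 9 genes other than SIK1 the fitted 95% intervals, PKI over inPKI, ran from 0.910 to 1.26-fold. All fold intervals given are folds of CPM + 1, a scale on which low genes show too small a change.

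**Figure D1:**
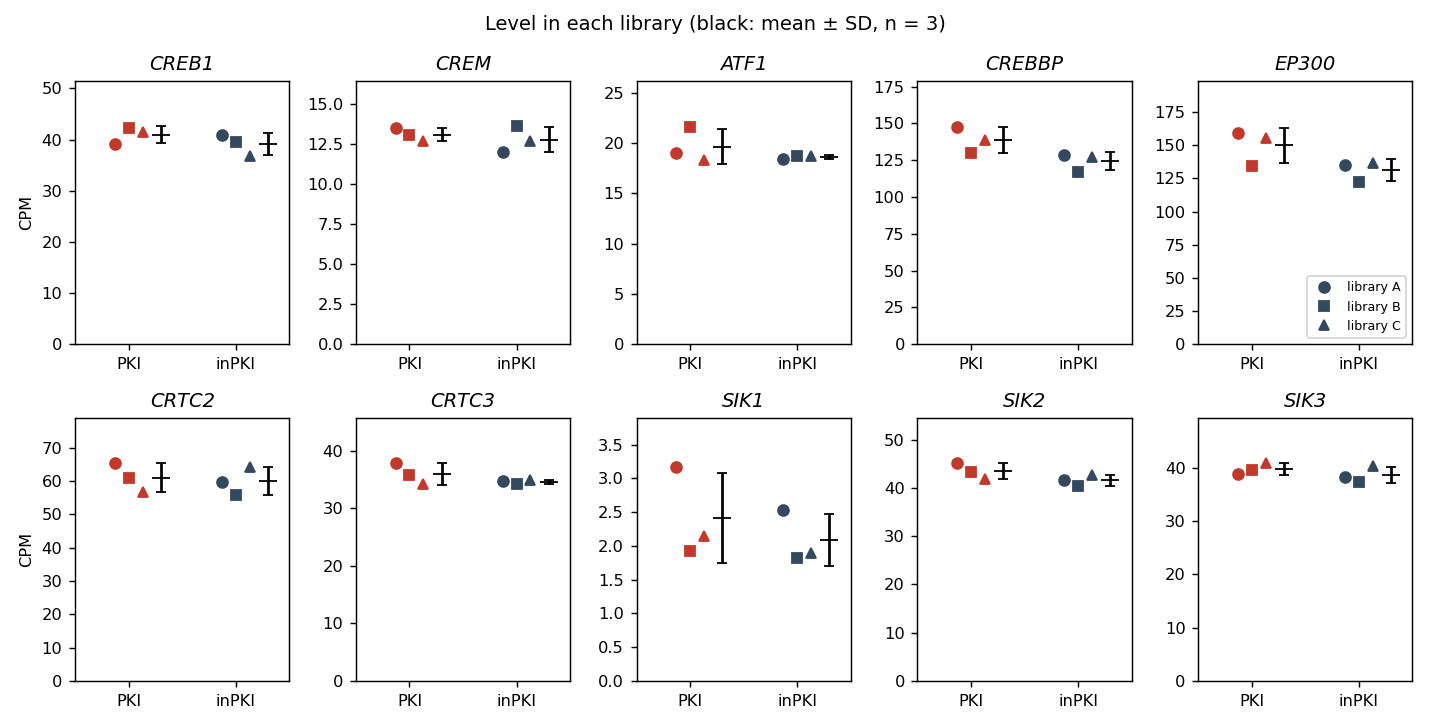
CPM (vertical axes, from 0) of each of the 10 genes in the 3 PKI libraries (red, left) and the 3 inPKI libraries (dark, right); symbols mark the libraries A, B and C, and black bars the mean ± SD. CREBBP is the only gene whose groups do not overlap, with 129.9 CPM in the lowest PKI library and 128.8 CPM in the highest inPKI library.

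Among the CREB factors, CREB1, the main activator of the family, measured 39.0, 42.2 and 41.5 CPM in PKI A, B and C, against 40.9, 39.6 and 36.9 CPM in inPKI A, B and C. The groups overlapped: PKI A lay below inPKI A and inPKI B. The log2 change (PKI minus inPKI, of CPM + 1) was 0.063 ± 0.061 (SE), with a 95% interval of 0.955 to 1.14-fold and a limma adjusted p of 0.667. CREM, whose transcripts code for activators and, from the internal start, for the repressor ICER, measured 13.5, 13.1 and 12.7 CPM in PKI and 12.1, 13.6 and 12.7 CPM in inPKI. Every PKI value fell between the lowest and the highest inPKI value. The interval of its fold was 0.910 to 1.15 (adjusted p = 0.881). The table holds 1 value for the gene, so ICER and the longer CREM transcripts are summed in it. ATF1, a close relative that pairs with CREB1, measured 19.02, 21.6 and 18.3 CPM in PKI and 18.4, 18.7 and 18.7 CPM in inPKI. PKI B was the highest and PKI C the lowest of the 6 libraries, and the fold interval was 0.940 to 1.17 (adjusted p = 0.700).

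CREBBP and EP300 code for paralogous coactivators that acetylate histones. CREBBP measured 147.5, 129.9 and 138.7 CPM in PKI A, B and C and 128.8, 117.2 and 127.0 CPM in inPKI A, B and C. Its groups did not overlap, though PKI B and inPKI A lay close together; of all genes tested, 10.9% did not overlap with PKI higher, and 8.88% with PKI lower. The log2 change was 0.16 ± 0.060 (SE), the fold interval 1.02 to 1.22 and the adjusted p 0.285. EP300 measured 159.3, 134.5 and 155.7 CPM in PKI and 135.3, 122.0 and 136.5 CPM in inPKI. PKI B lay below inPKI A and inPKI C, so the groups overlapped. Its log2 change was 0.19 ± 0.068 (SE), with a fold interval of 1.03 to 1.26 and an adjusted p of 0.259. In both genes library B was the lowest of its group.

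Across all genes the difference between PKI and inPKI moved with transcript length. The longest annotated transcripts of CREBBP and EP300 have 10803 and 9587 bases, which puts both in the longest of 5 equal length groups of the genes tested (5838 bases or more). In that group the median log2 change was 0.075 and 29.9% of genes had groups that did not overlap with PKI higher, against a median of -0.098 and 3.12% in the shortest group. With trends of transcript length and GC content removed from each library, the log2 change was 0.026 for CREBBP (adjusted p = 0.913) and 0.080 for EP300 (adjusted p = 0.708). At an unadjusted p below 0.05 there were then 0 of the 10 genes. CREB1, SIK2 and SIK3 are also in the longest group, with log2 changes of -0.030, -0.046 and -0.0064 in that fit. Length runs with the groups in these libraries, so an effect of PKI and one of length cannot be told apart here.

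**Figure D2:**
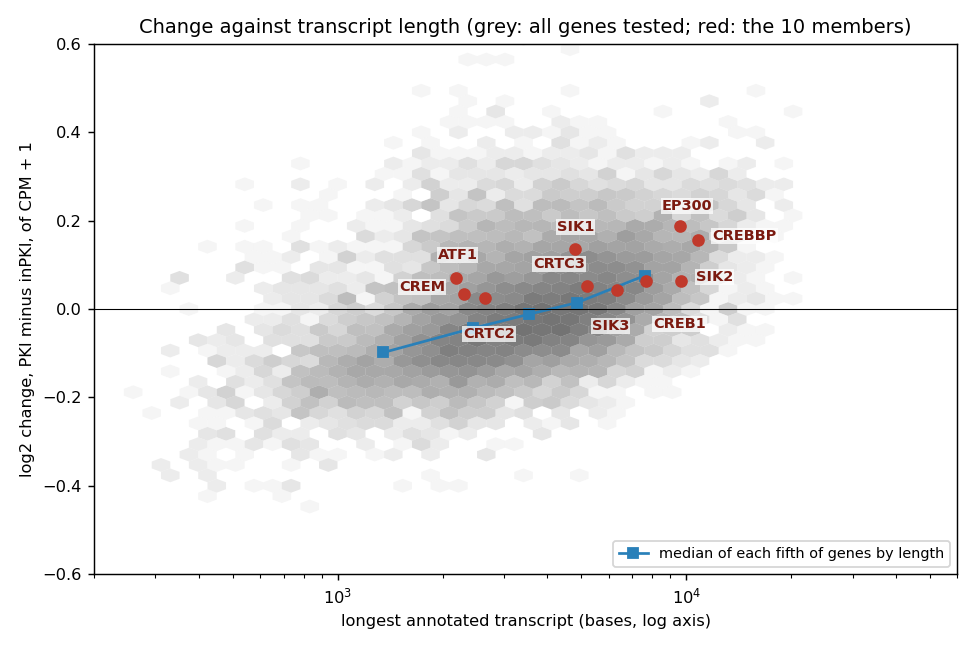
Log2 change, PKI minus inPKI (vertical), against the longest annotated transcript in bases (horizontal, log axis) for all genes tested (grey, darker where more genes fall) and the 10 genes described (red); blue squares join the medians of the 5 length groups, and a few genes fall off the axes. The medians run from -0.098 in the shortest group to 0.075 in the longest, and CREBBP and EP300 lie at the long end.

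The CRTC genes code for the coactivators whose entry into the nucleus the SIKs restrain. CRTC2, known for its part in glucose production in liver, measured 65.4, 60.9 and 56.7 CPM in PKI and 59.6, 55.8 and 64.3 CPM in inPKI. The highest library was PKI A and the lowest inPKI B, with the other 4 interleaved. The fold interval was 0.923 to 1.12 (limma adjusted p = 0.891). CRTC3 measured 38.0, 35.8 and 34.2 CPM in PKI, against 34.8, 34.2 and 34.9 CPM in inPKI. PKI A and PKI B lay above all inPKI libraries and PKI C at the level of inPKI B, and the fold interval was 0.950 to 1.13 (adjusted p = 0.721).

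SIK2 and SIK3 are the broadly expressed kinases of the family. SIK2 gave 45.2, 43.3 and 41.9 CPM in PKI and 41.6, 40.4 and 42.7 CPM in inPKI, with PKI C below inPKI C. SIK3 gave 38.9, 39.6 and 41.0 CPM in PKI and 38.2, 37.3 and 40.3 CPM in inPKI, with PKI A and PKI B below inPKI C. Neither gene passed, with fold intervals of 0.960 to 1.14 for SIK2 (adjusted p = 0.645) and 0.946 to 1.12 for SIK3 (adjusted p = 0.770).

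SIK1 is the member of the kinase family whose RNA is known to be induced by cyclic AMP. Its mean normalized count in the authors' deposited table, 665, was above those of CREM (199) and ATF1 (433). In the deposited CPM SIK1 was the lowest and least precise of the 10. It measured 3.18, 1.93 and 2.14 CPM in PKI A, B and C and 2.54, 1.82 and 1.90 CPM in inPKI A, B and C. These are 86, 58 and 49 reads in PKI and 65, 50 and 46 reads in inPKI, where counting alone gives an error of 10.8% at the highest value and 14.7% at the lowest. Library A was the highest of each group, and the groups overlapped. The log2 change was 0.14 ± 0.16 (SE), with a fold interval of 0.870 to 1.39 and an adjusted p of 0.730. Those are values of CPM + 1, and the ratio of mean CPM, PKI over inPKI, was 1.16. Without PKI A the log2 change was -0.017.

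A row of a near-identical gene limits what the SIK1 value means. The annotation has a copy of the gene, named SIK1B in GENCODE 29 and CH507-42P11.8 in the table (ENSG00000275993.2, chr21:6111134-6123739 on GRCh38), and over 4705 aligned bases the longest transcripts of both genes differ at 7. How reads that match both genes were counted is not given in the sources used here, so both values are uncertain. The copy measured 12.04, 10.6 and 10.8 CPM in PKI and 10.4, 11.1 and 11.1 CPM in inPKI. SIK1 took 20.9%, 15.4% and 16.5% of the summed value in PKI A, B and C and 19.6%, 14.1% and 14.6% in inPKI A, B and C. Counted as 1 row, an alternative chosen after the data were seen, SIK1 and its copy measured 15.2, 12.5 and 12.99 CPM in PKI and 12.95, 12.9 and 13.03 CPM in inPKI. The sum varied more among PKI libraries, where PKI A was the highest of all 6 and PKI B the lowest. Its log2 change was 0.058 ± 0.085 (SE), with a fold interval of 0.918 to 1.18 (adjusted p = 0.791). That interval belongs to the sum, most of which is the value of the copy, and not to the SIK1 row. The level of the sum is uncertain as well. Means in the authors' deposited table were 665 for SIK1 and 2348 for the copy, against 59.0 and 288.8 reads on average here.

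**Figure D3:**
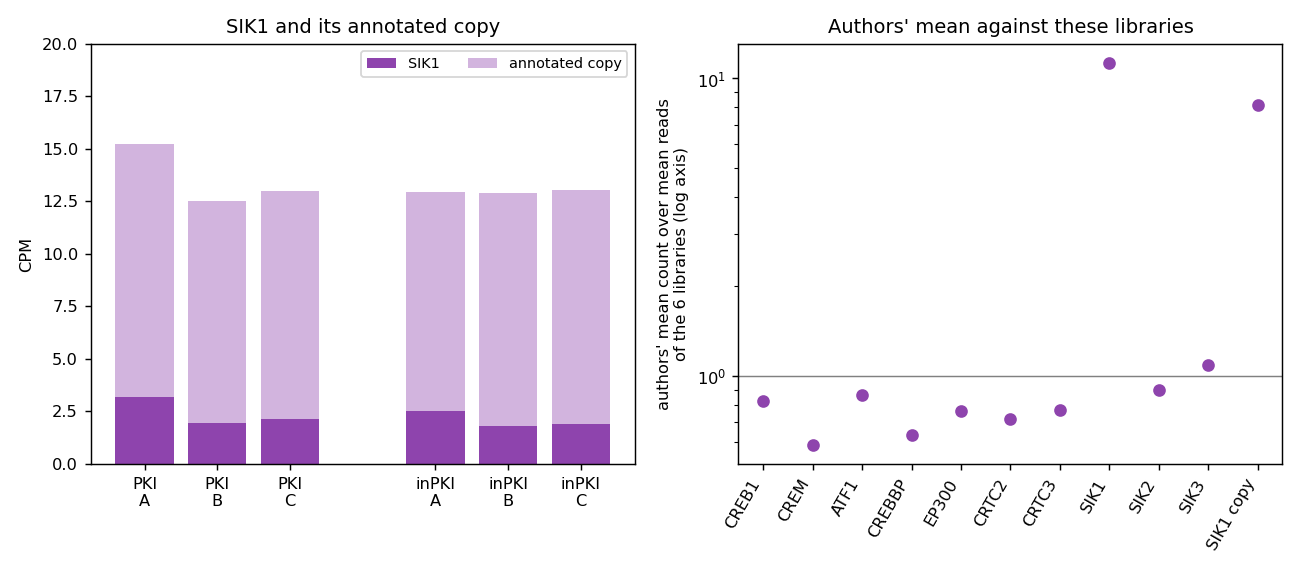
Left, CPM of SIK1 (dark) and of its annotated copy (light), stacked from 0, in each PKI library and then each inPKI library; PKI A is the highest, at 15.2 CPM, and the other sums lie between 12.5 and 13.03 CPM. Right, the mean normalized count of the authors' deposited table divided by the mean reads of the 6 libraries (log axis), for the 10 genes and the SIK1 copy; SIK1 and the copy lie at 11.3 and 8.13, and the other 9 genes between 0.586 and 1.08.

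The authors' deposited table of their own comparison called 0 of the 10 genes, and 14 (0.0657%) of the 21299 genes with an adjusted p in it. In that table the signed fold, PKI over inPKI, was above 1 for all 10, with 1.15 for EP300, 1.12 for CREBBP and 1.17 for SIK1. Its mean normalized count for SIK1 was 665, whereas the 6 libraries held 59.0 reads of SIK1 on average and 86 at most. For the SIK1 copy the mean in the authors' deposited table was 2348, against 288.8 reads on average here. The other 9 genes had means there of 0.586 to 1.08 times their average here. In 2069 genes at 0 in all 6 libraries the authors' deposited table gives a mean above 0, so its means were not computed from these 6 columns as deposited.

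All 10 log2 changes were above 0, with a median of 0.063 and a range of 0.025 to 0.19, beside 47.4% of all genes tested above 0 and a median of -0.0074. The count was 10 of 10 under both other scalings of the columns, 7 of 10 with the length and GC trends removed (CREB1, SIK2 and SIK3 below 0) and 8 of 10 without PKI A (CRTC2 and SIK1 below 0). Of the 10 genes, 5 are in the longest of the length groups. The changes of the 10 genes share libraries and are not independent of each other.

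**Figure D4:**
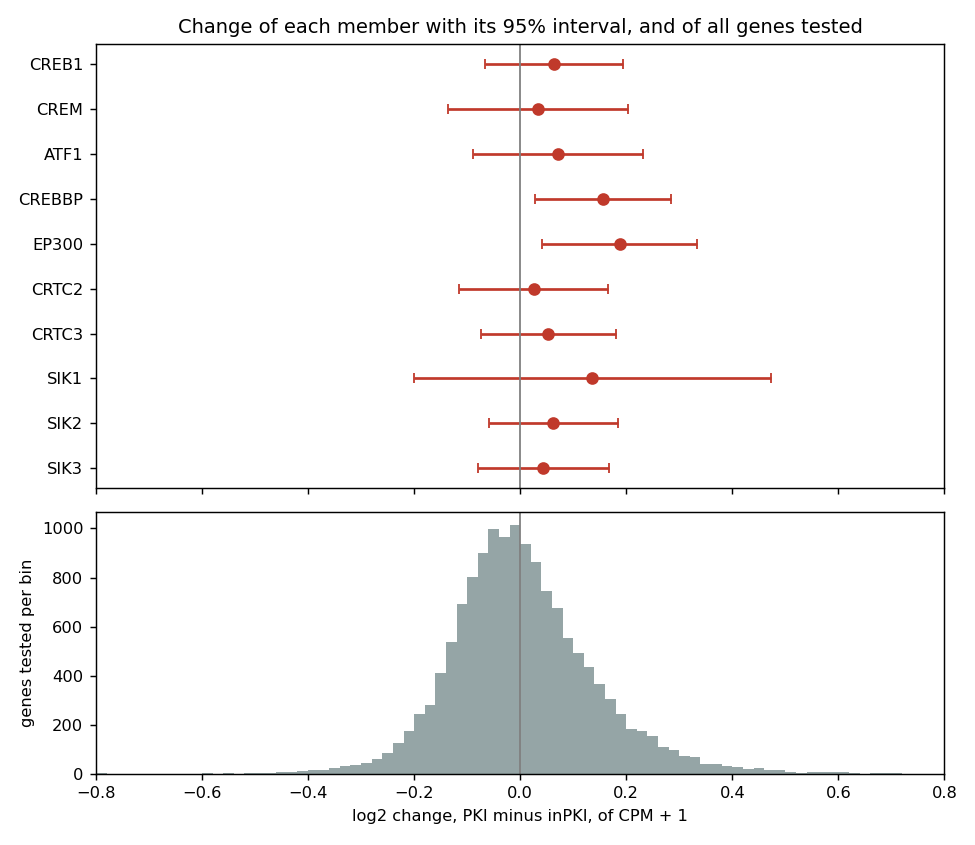
Above, the log2 change, PKI minus inPKI, of each of the 10 genes with its 95% interval; below, the same quantity for all genes tested, as a histogram (values beyond 0.8 on either side are off the axis). The intervals of CREBBP and EP300 exclude 0, that of SIK1 is the widest, and all 10 points lie between 0.025 and 0.19.

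Levels can be set against each other only per length of transcript, here as CPM per kilobase of the longest annotated transcript. CRTC2 was highest, at 23.1 ± 1.64 in PKI and 22.7 ± 1.598 in inPKI (SD, n = 3 each). EP300 followed with 15.6 ± 1.40 in PKI and 13.7 ± 0.841 in inPKI, then CREBBP with 12.8 ± 0.814 and 11.5 ± 0.578 in the same order of groups. ATF1 stood at 9.002 ± 0.798 in PKI and 8.53 ± 0.0879 in inPKI, above CRTC3 at 6.91 ± 0.362 and 6.65 ± 0.0709. Next were SIK3 (6.29 in PKI, 6.10 in inPKI), CREM (5.68 and 5.55), CREB1 (5.35 and 5.11) and SIK2 (4.49 and 4.30). SIK1 came last at 0.503 in PKI and 0.434 in inPKI, and with its copy added at 2.83 and 2.70. The authors' deposited table gives SIK1 and its copy means of 665 and 2348, far above the reads here. The place of SIK1 is thus that in the deposited CPM. CREM and CREB1 overlapped in inPKI, as did SIK3 and CREM, so these neighbours did not differ beyond their spread there. The order depends on the transcript taken: by the median length of protein-coding transcripts in the basic annotation, CREM came to 12.5 in PKI and 12.2 in inPKI, above ATF1 and SIK3, and CRTC3 came to 14.2 and 13.7, beside CREBBP at 15.1 and 13.5, while CRTC2 and EP300 stayed first and second and SIK2 and SIK1 last.

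Within each family the balance among members overlapped between the groups, by the longest annotated transcript. The size of each share depends on the transcript taken, which the SDs do not cover. By the median length of protein-coding transcripts CREM, at 12.5 CPM per kilobase in PKI and 12.2 in inPKI, stood above ATF1 (9.002 and 8.53). By that length CRTC3 came to 14.2 and 13.7, against 6.91 and 6.65 by the longest. Shares by the median length were not computed. Per length, CREB1 made up 26.7% ± 1.18 of the CREB factor sum in PKI and 26.7% ± 1.36 in inPKI, CREM 28.4% ± 1.45 in PKI and 28.9% ± 1.30 in inPKI, and ATF1 44.9% ± 1.86 in PKI and 44.4% ± 0.881 in inPKI (SD, n = 3 each). EP300 held 54.9% ± 1.003 of the sum with CREBBP in PKI and 54.3% ± 0.407 in inPKI. CRTC2 held 76.9% ± 0.346 of the sum with CRTC3 in PKI, against 77.3% ± 1.07 in inPKI. Of the SIK sum, copy included, SIK3 held 46.2% ± 2.09 in PKI and 46.6% ± 0.543 in inPKI, and SIK2 33.0% ± 0.834 in PKI and 32.8% ± 0.158 in inPKI. These SIK shares hold for the deposited CPM only. The means of the authors' deposited table were 11.3 and 8.13 times the mean reads here for SIK1 and its copy. For SIK2 and SIK3 they were 0.898 and 1.08 times.

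Other genes of the same pathway were 50 in number, and all 50 were tested. They are kinases and phosphatases of CREB, the LKB1 complex that activates SIKs, other kinases of CRTCs, calcineurin, which dephosphorylates CRTCs, 14-3-3 proteins, the class IIa histone deacetylases that SIKs also phosphorylate with their MEF2 partners, and cofactors. Limma called 0 of the 50 and edgeR 0, beside 0.126% and 0.0771% of all genes tested. DESeq2 called 1, PRKAA2, of the 40 to which it gave an adjusted p, beside 2.73% of all genes with one. Unadjusted, the limma p was below 0.05 for 2 higher (PRKAA2 and HDAC9) and 3 lower genes (YWHAH, PPP1CA and STRADB). Of all genes tested these shares were 7.53% and 6.16%. The median log2 change of the 50 was -0.012, with 22 above 0 and 28 below, beside 47.4% of all genes tested above 0.

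PRKAA2, which codes for an AMPK catalytic subunit, a kinase related to SIKs that also phosphorylates CRTC2, measured 33.1, 36.6 and 37.8 CPM in PKI and 31.6, 29.1 and 27.5 CPM in inPKI. The lowest PKI value was above the highest inPKI value, as in 10.9% of all genes tested and 29.9% of the longest length group. The log2 change was 0.28 ± 0.070 (SE), with an adjusted p of 0.130 in limma and 0.0323 in DESeq2, over a range of 0.0323 to 0.505 in the alternatives. Its longest transcript has 9347 bases, which puts it in the longest length group, and with the length and GC trends removed the log2 change was 0.15. HDAC9, a class IIa deacetylase gene, measured 2.56 ± 0.351 CPM in PKI and 1.78 ± 0.108 CPM in inPKI (SD, n = 3 each; limma adjusted p = 0.274). YWHAH, the 14-3-3 eta gene, measured 118.9 ± 8.30 CPM in PKI and 130.5 ± 3.91 CPM in inPKI (adjusted p = 0.334). HDAC9, with 9705 bases, is in the longest length group (median log2 change 0.075), and YWHAH, with 1879 bases, in the shortest (median -0.098). All 7 genes of 14-3-3 proteins had log2 changes below 0, from -0.16 to -0.038, and 0 of the 7 passed. Of all 14275 genes tested, 7504 were below 0. Among the 14-3-3 genes, SFN (1320 bases) is also in the shortest length group, and YWHAB (5867 bases) is in the longest.

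PPP1CA, a catalytic subunit of protein phosphatase 1, which dephosphorylates CREB, measured 118.3 ± 7.95 CPM in PKI and 129.0 ± 2.82 CPM in inPKI (SD, n = 3 each; adjusted p = 0.359). STRADB, a pseudokinase partner of LKB1, measured 38.6 ± 4.35 CPM in PKI and 43.2 ± 2.17 CPM in inPKI (adjusted p = 0.362). PPP1CA, with 1677 bases, is in the shortest length group, and STRADB, with 2293 bases, in the next. The members of the remaining roles with the smallest p were the calcium-dependent CREB kinase gene CAMK4, with a log2 change of 0.15 ± 0.080 (SE), the cofactor gene TAF4, with 0.11 ± 0.064, and the calcineurin gene PPP3CB, with -0.092 ± 0.062. None of these passed in limma.

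**Figure D5:**
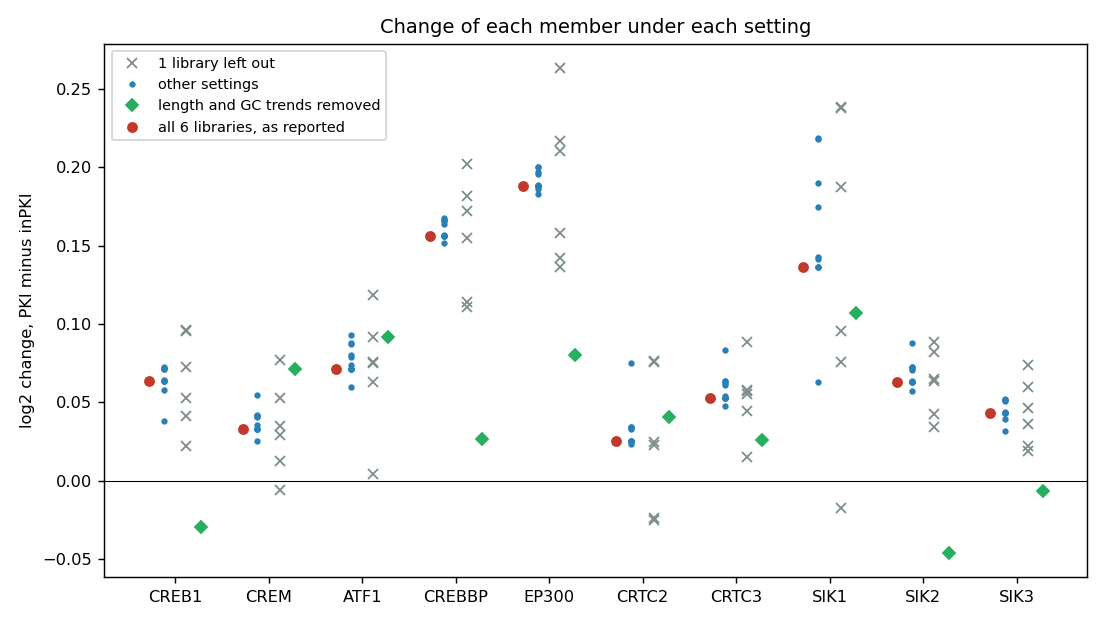
Log2 change, PKI minus inPKI, of each of the 10 genes with all 6 libraries (red), with 1 library left out (grey crosses), with the length and GC trends removed (green) and under the other settings (blue). EP300 runs from 0.080 to 0.26 and CREBBP from 0.026 to 0.20, with both lowest once the trends are removed; no point with an adjusted p passed 0.05, and the DESeq2 points of CREM and SIK1 have none.

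Overlapping genes may limit some of these values, since the strand setting of the counting is not given in the sources used here. Overlap was taken over whole gene spans, introns included, and overlap of exons was not checked. METTL21A, at 11.6 to 14.2 CPM, overlaps CREB1 on the other strand, and PPP2R1B, at 58.1 to 68.0 CPM, overlaps SIK2. The antisense gene of EP300 reached 0.394 CPM, far below EP300 itself. The pseudogene HSPE1P3, at 3.73 to 5.23 CPM, lies within CRTC3 on the same strand.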

How the data were processed

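RNA libraries of 6 HEK293 samples (3 PKI, 3 inPKI, by their titles) were analysed from 2 tables the authors deposited. Without role or setting, the notes on processing list the build hg19 and the tools DESeq2 1.20.0, RSEM 1.3.0, STAR 2.5.2b and cutadapt 1.14. The authors deposited CPM per gene, and the name they gave the table mentions RSEM and TMM scaling. In the authors' deposited comparison the file headers give a Wald score, a p-value before and after adjustment, the log2 fold change and its error, a signed fold and, as signal, the mean normalized count; the deposited log2 column is positive where inPKI is higher and was not printed.

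All CPM values (100%, within 0.01 reads) were whole multiples of the smallest value of their column, which gave whole reads, worth 0.0333 to 0.0437 CPM each. Intervals from these reads cover counting error only, since PCR copies cannot be told apart.

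Genes with at least 1 CPM in at least 3 of 6 libraries (14275) were tested as log2(CPM + 1), a scale on which low genes show too small a change, with limma 3.58.1 in R 4.3.3 (mean-variance trend, 2-sided, Benjamini-Hochberg, threshold 0.05); all unlabelled adjusted p-values are limma's. On the recovered reads edgeR 4.0.16 and DESeq2 1.42.0 were alternatives. The tests were tried on simulated counts. An exact permutation test of 3 against 3 cannot go below 0.1.

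Other alternatives were pseudocounts of 0.25 and 5, no filter and a filter of 5 CPM, 2 rescalings, a replicate block, no trend, sample weights, lowess removal of length and GC trends (span 0.3), leaving out each library, and, chosen after the data were seen, SIK1 summed with its copy. Lengths and positions come from GENCODE 29 on GRCh38 (30795 identifiers matched, 165 did not). Transcript copies were aligned with Biopython 1.88 and figures drawn with matplotlib 3.10.9. The 10 members, the pathway list and the tests were chosen with earlier results of these data known. All members, PKIA, and from each pathway role the gene with the smallest p were named; the smallest p in a role sets the choice, so those genes are examples. The SIK1 copy and the genes that overlap members were named for their sequence or position, after values were seen.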

Additional observations from a re-analysis of the deposited data

Results flagged for a closer look

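The mean normalized count of SIK1 in the authors' deposited table, 665, was 7.73 times the highest of the 6 libraries analysed here (86 reads), and that of its annotated copy, 2348, was 7.20 times the highest (326 reads). Both stood out because the mean in that table is above the value in each of the 6 deposited columns. Of the 14275 genes tested, 1048 (7.34%) had a mean there of at least 2 times their highest library, and 224 had a ratio to their average here at least as large as that of SIK1, 11.3. The median ratio over the genes tested was 0.716. The cause of the difference was not tested.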

How the results depend on the processing

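Of 180 values of the 10 genes under the alternatives, 173 kept their direction. Of the 178 with an adjusted p (DESeq2 gave none to CREM and SIK1), 0 passed the threshold, with a smallest adjusted p of 0.0685 for EP300 without PKI B. With the length and GC trends removed, CREB1 (-0.030), SIK2 (-0.046) and SIK3 (-0.0064) were below 0 on the log2 scale. Without inPKI A CREM was at -0.0059 (range over single libraries left out -0.0059 to 0.077), CRTC2 was at -0.025 without PKI A and -0.024 without inPKI B (range -0.025 to 0.076), and SIK1 was at -0.017 without PKI A (range -0.017 to 0.24). The filter of 5 CPM leaves out SIK1. The 2 genes at an unadjusted p below 0.05 became 0 in limma without a trend, 0 after removal of length and GC trends, and 0 without PKI A or inPKI B, over 0 to 2 for single libraries left out. Pathway genes past the threshold were 1 by DESeq2 and 0 otherwise. Over all genes 18 passed, against 4 with no filter, 4 without a trend, 11 with either rescaling, 11 by edgeR, 216 by DESeq2, 144 with sample weights, 124 with the replicate block, and 9 to 114 with 1 library left out (9 without inPKI B, 11 without inPKI A, 37 without PKI A, 46 without PKI C, 114 without PKI B). The letters A, B and C are not stated to pair libraries: same-lettered libraries correlated by 0.017, 0.014 and 0.028 in their deviations, each highest for its own letter, and the block called 0 of the 10 genes. Both rescalings moved the median of all genes by less than 0.01. SIK1 rests on 46 to 86 reads per library, and the reason for that number was not tested.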
